A study of Mus musculus with 10 samples.

Results

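The comparison sets FBB1.11, a subclone of mouse erythroleukemia (MEL) cells that carries tagged BCL11A, against its parental line. It was chosen by the sample titles, which give 2 arrays of FBB1.11 and 2 of the parental line among 10 arrays in all. MEL cells are red cell precursors transformed by a virus that grow in culture and are arrested before they fill with hemoglobin. The parental line, Mel-BirA, holds the bacterial biotin ligase BirA and no tagged BCL11A. FBB1.11 holds BirA as well and stably expresses BCL11A with a FLAG and biotin tag, so BirA is common to both groups and the tagged protein is not. FBB1.11 is 1 clone, so what the tagged protein does and what sets this clone apart from the line it came from cannot be told apart. The promoter that drives the tagged gene, its species of origin and its isoform are not given in the sources used here. The other 6 arrays are of FBB1.5, FBB1.7 and FBB1.10, further subclones with the same construct. Total RNA was read on Affymetrix Mouse Genome 430 2.0 arrays, on which a gene is read by 1 or more probe sets.

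BCL11A is a zinc finger transcription factor that represses embryonic and fetal globin genes in red cell precursors and is needed for lymphoid development. It binds short DNA motifs and works with corepressors, among them the NuRD complex, whose subunits include the chromatin remodelers CHD3 and CHD4 and the histone deacetylases HDAC1 and HDAC2. BirA attaches biotin to the tag, which allows the tagged protein to be pulled down on streptavidin, and lines of this kind are made for finding partners and binding sites.

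All 4 arrays had an overall signal close to each other, with median intensities between 29.6 and 31.1. The 2 arrays of FBB1.11 correlated with r = 0.988 over the 25061 tested probe sets and the 2 parental arrays with r = 0.981, across probe sets, which are not independent replicates. Parental 1 correlated with the FBB1.11 arrays at 0.984 and 0.985, closer than with parental 2. Actin control probe sets at the 3' end over those at the 5' end, a ratio that rises when RNA is degraded, gave 1.80 in parental 2, 1.22 in parental 1, and 1.14 and 1.16 in FBB1.11. Its part in the results was not tested beyond leaving out each array and a fit with the ratio as a covariate. Erythroid markers were present: 8 of 10 lay above the table's median intensity of 30.5 on all 4 arrays, Gata1 between 2163 and 2383. The anion exchanger gene Slc4a1, a late erythroid marker, lay below it on all 4. Whether the pair of arrays of each line stands for separate cultures is not stated, so every p-value reflects array-to-array spread that may be only technical.

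Bcl11a was higher in FBB1.11 on 1 of its 6 tested probe sets. That probe set read 39.7 and 35.9 in the parental arrays and 245 and 181 in FBB1.11. The groups were far apart, by 2.08 ± 0.19 on the log2 scale (SE; limma, adjusted p = 7.1e-05), and the call held whichever of the 10 arrays was left out. The other 5 differed by 0.09 to 0.30 and passed in no case. The brightest of them, for example, read 307 and 347 in parental and 327 and 371 in FBB1.11 (adjusted p = 0.82). A seventh probe set lay below the intensity filter. Whether the construct's own transcript is seen by any of these probe sets was not analysed here.

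Few transcripts separated FBB1.11 from the parental line. Of 25061 tested probe sets 47 passed, 0.188%, with 19 higher (0.0758%) and 28 lower (0.112%), by limma with Benjamini-Hochberg adjustment at 0.05. With quantile normalization 15 were higher and 36 lower. The 47 include 41 probe sets that name 1 gene, 32 genes in all, 15 with a probe set that rose and 18 with one that fell; Igf1r counts in both. On all 47 the 2 FBB1.11 arrays lay on one side of both parental arrays, as 20.6% of the tested probe sets did upward and 20.6% downward, and 17 of the 47 differed by more than 1 on the log2 scale. The count leaned on single arrays. It was 435 without parental 1, with 349 higher and 41 of the 47 among them, and 95 without parental 2. It was 10 without FBB1.11 1, 22 without FBB1.11 2, 28 without FBB1.7 2, 30 without FBB1.7 1 and 72 without FBB1.5 2. With the actin ratio as a covariate it was 16. Called whichever array was left out were 8 probe sets, 1 each of Bcl11a, Bex4, Mcpt2, Cma1, Ndrg1, Phf3, Chd4 and Cda. Without the intensity trend in the variance those of Ndrg1 and Chd4 did not pass.

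**Figure D1:**
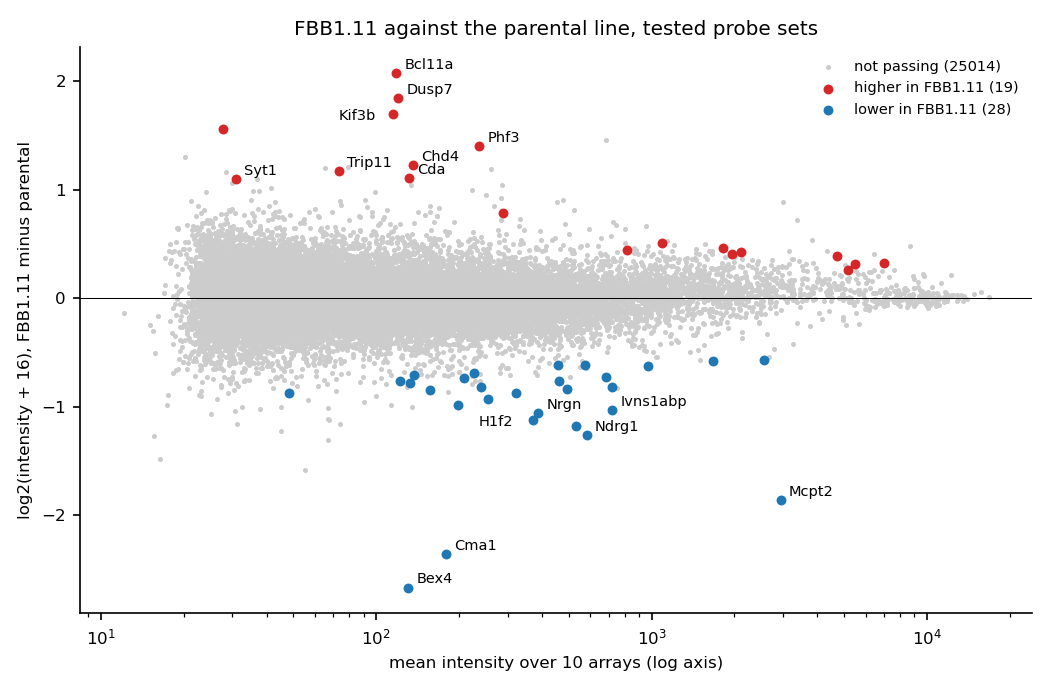
Mean intensity over the 10 arrays (x, log axis) against the log2 difference, FBB1.11 minus parental, of log2(intensity + 16) (y), for 25061 tested probe sets; 19 passed as higher (red) and 28 as lower (blue), and named genes differ by more than 1. Bex4, Cma1 and Mcpt2 lie lowest, at -2.66, -2.36 and -1.86, and the called Bcl11a probe set highest, at 2.08.

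Bex4 fell furthest among the transcripts that passed. It belongs to a family of small X-linked genes first described for their expression in brain. Its only tested probe set read 178 and 175 in the parental arrays and 14.7 and 13.96 in FBB1.11, where both arrays lay below the table's median. Bex4 was thus at least 5.78-fold lower (log2 difference -2.66 ± 0.15, adjusted p = 5.6e-07), a bound that sets the parental mean against the table's median. The adjusted p was at most 4.7e-05 whichever array was left out. The other subclones kept signal for this transcript, with means of 94.1 in FBB1.5, 139 in FBB1.7 and 229 in FBB1.10.

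Proteases of mast cells fell as well. Mcpt2, a chymase, read 5974 and 4933 in parental cells and 1519 and 1456 in FBB1.11, 3.65-fold lower (log2 difference -1.86 ± 0.12, adjusted p = 1.8e-06). Cma1, another chymase, fell from 324 and 263 to 36.2 and 53.1 (-2.36 ± 0.21, adjusted p = 6.4e-05). Gzmb, granzyme B, went from 277 and 261 to 118 and 140.1 (-0.98 ± 0.14, adjusted p = 0.0075), a call that ended without FBB1.11 1 (adjusted p = 0.18). These 3 genes sit in one cluster on chromosome 14, where Mcpt2 is separated from Cma1 by 2 protein-coding genes and Gzmb by 13. Mcpt4, a chymase of the same cluster, read 54.6 and 48.9 in parental and 20.2 and 26.9 in FBB1.11 and did not pass (adjusted p = 0.15). Among mast cell genes elsewhere in the genome, Cpa3, a carboxypeptidase, read 106 and 92.3 against 54.5 and 63.8 (adjusted p = 0.16) and Tpsb2, a tryptase, 38.5 and 38.9 against 41.6 and 45.7 (adjusted p = 0.83). Srgn, the proteoglycan core of mast cell granules, stood at 1414 and 1317 in parental and 1357 and 1371 in FBB1.11, with overlapping arrays. Of the whole mast cell and basophil list, 3 of 10 measured members passed as lower and 0 as higher, beside 0.12% and 0.064% of all genes by their brightest probe set, with a median log2 difference of -0.48 against 0.0026 over all 12502 genes. The list had been singled out by earlier results of these data, so its count is not independent evidence of its direction. Summed over the 9 markers listed for mast cells, intensity was 6812 and 5667 in parental arrays and 1832.5 and 1839 in FBB1.11, most of it Mcpt2. The receptor genes Fcer1a and Ms4a2 and the histidine decarboxylase gene Hdc lay below the table's median on all 4 arrays. Fewer cells with the lowered protease transcripts and less of their RNA per cell cannot be told apart in bulk RNA.

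Upstream sequences of 3 of the lowered genes, Cma1, Gzmb and Bex4, are shown because Cma1 and Gzmb fell together from one locus and Bex4 fell furthest. Mcpt2, of the same locus as Cma1, had no RefSeq promoter in the source used, so its sequence is missing here. The 3 sequences follow. Each runs from 250 bases before to 50 after the RefSeq start on GRCm38.p6, 5' to 3' on the gene's strand, and capitals mark TGACCA, the core motif known for BCL11A, in either orientation. That of Bex4 is chrX:136138746-136139045 on the plus strand, that of Cma1 chr14:55944626-55944925 and that of Gzmb chr14:56262285-56262584, both on the minus strand.
Bex4: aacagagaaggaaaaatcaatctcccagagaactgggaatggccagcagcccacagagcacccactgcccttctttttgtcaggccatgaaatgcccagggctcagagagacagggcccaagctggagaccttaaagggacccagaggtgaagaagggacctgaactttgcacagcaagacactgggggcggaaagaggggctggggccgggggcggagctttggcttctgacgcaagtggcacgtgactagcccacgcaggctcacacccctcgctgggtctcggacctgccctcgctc
Cma1: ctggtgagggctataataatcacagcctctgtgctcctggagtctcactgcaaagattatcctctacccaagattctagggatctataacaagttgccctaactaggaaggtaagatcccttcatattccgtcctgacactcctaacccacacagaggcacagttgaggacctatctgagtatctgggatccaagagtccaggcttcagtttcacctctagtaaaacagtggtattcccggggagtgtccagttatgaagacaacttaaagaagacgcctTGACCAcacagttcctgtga
Gzmb: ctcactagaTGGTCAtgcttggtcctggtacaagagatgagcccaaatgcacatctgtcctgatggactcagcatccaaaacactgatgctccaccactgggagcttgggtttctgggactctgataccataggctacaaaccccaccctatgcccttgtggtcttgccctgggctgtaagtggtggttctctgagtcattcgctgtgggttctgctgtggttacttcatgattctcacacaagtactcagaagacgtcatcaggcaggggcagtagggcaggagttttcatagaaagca
Cma1 and Gzmb each hold 1 match, as TGACCA in Cma1 and as its reverse complement, TGGTCA, in Gzmb, and Bex4 holds none. Of genes with a called probe set, 15 of 18 lowered and 12 of 15 raised ones had RefSeq promoters in the table. TGACCA was found in 6 of 20 promoters of lowered genes (30%), in 4 of 19 of raised genes (21.1%) and in 11.4% of the 12808 promoters of all tested genes. AGATAA, the motif of GATA factors, was found in 1 of 20, in 2 of 19 and in 6.93%, on either strand. Some genes have several overlapping promoters, so these shares do not count independent genes, and a match is not a binding site. Matches of the 2 motifs can overlap by an end base.

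Ndrg1, which is induced by stress, hypoxia and differentiation, fell on all 5 of its tested probe sets. The brightest read 866 and 839.8 in parental and 342 and 350.4 in FBB1.11 (-1.26 ± 0.14, adjusted p = 0.00073). The remaining 4 fell by 0.61 to 1.17. Their calls ended without FBB1.11 2 for each of them (highest adjusted p 0.37) and, for the 3 dimmest, also without FBB1.11 1. The 2 dimmest lost theirs without either FBB1.7 array too, and the dimmest without parental 1. No other member of the glycolysis and hypoxia list passed, of 27 measured, beside 0.184% of all genes by their brightest probe set.

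Regulators of growth and cytokine response were among the genes that fell. Btg1, an antiproliferative gene, read 956 and 884 in parental and 550.0 and 484 in FBB1.11 (-0.81 ± 0.15, adjusted p = 0.044), and its second probe set passed too, though not without parental 1. Csf2rb, the beta chain shared by receptors for interleukin 3 and GM-CSF, fell from 402 and 392 to 198 and 221 (adjusted p = 0.043). In both genes the 2 pairs of arrays lay well apart. Btg2, a relative of Btg1, read 149 and 144 and 79.4 and 91.5 and just missed the threshold (adjusted p = 0.053); it passed with arrays centred on their median (adjusted p = 0.045) or without either FBB1.10 array (adjusted p = 0.044). The Btg1 and Csf2rb calls ended without either array of FBB1.11 and without either of FBB1.7 (adjusted p up to 0.32 over both Btg1 probe sets and 0.39 for Csf2rb), and the Csf2rb call without parental 2.

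H1f2 and Nr2f1 fell as well. H1f2, a linker histone, read 555 and 670.1 in parental and 234 and 316 in FBB1.11 (-1.12 ± 0.15, adjusted p = 0.004). Of its 3 tested probe sets 2 passed as lower and the dimmest stood at 0.16 above parental. Nr2f1, an orphan nuclear receptor, went from 151 and 184 to 84.7 and 108 (adjusted p = 0.048). Both genes lost their call without FBB1.11 1 (adjusted p = 0.13 for H1f2), as they did with the actin ratio in the model. Nr2f1 also lost it without FBB1.11 2, parental 2 or any array of FBB1.7 or FBB1.10 (adjusted p up to 0.51).

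Several lowered genes encode calmodulin-binding, membrane or trafficking proteins. Nrgn, neurogranin, a calmodulin-binding protein known from neurons, read 477 and 457 in parental and 201 and 233 in FBB1.11 (-1.05 ± 0.14, adjusted p = 0.004). Serinc3, a membrane protein gene, fell on its 2 brightest probe sets of 6, the brightest from 1784 and 1770.0 to 1215 and 1160.2 (adjusted p = 0.012). Cog1, a subunit of a Golgi tethering complex, fell from 405 and 403 to 186 and 226 on its brightest probe set (adjusted p = 0.0085). The other 4 Cog1 probe sets stood between -0.01 and 0.08 on the log2 scale, none of them called. Abca1, the cholesterol efflux pump, fell by 0.73 (adjusted p = 0.047) and Plac8, at 83.8 and 76.8 in parental and 32.4 and 40.8 in FBB1.11, by 0.88 (adjusted p = 0.045). Without FBB1.11 1 none of these 5 genes passed, with adjusted p up to 0.43, and without FBB1.11 2 Nrgn and Cog1 did. Abca1 also lost its call without parental 1 or either FBB1.7 array. Plac8 lost it also without either parental array, FBB1.7 2 or either FBB1.10 array.

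**Figure D2:**
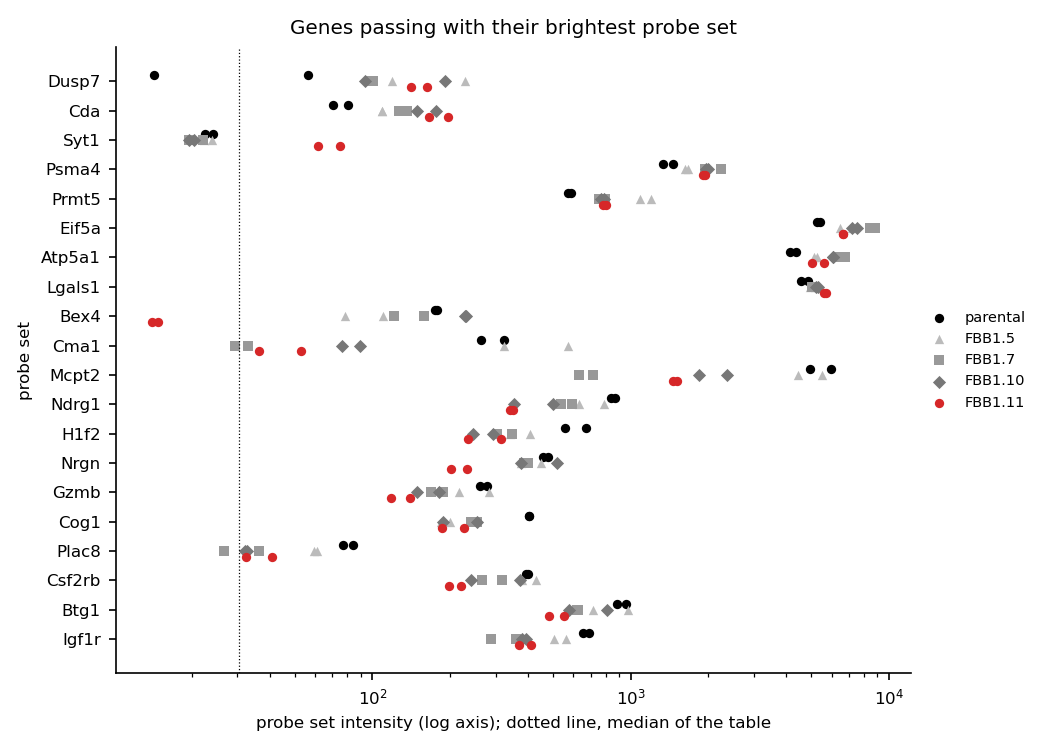
Intensity on each array (x, log axis) of the 8 highest and 12 lowest genes whose brightest probe set passed against parental (y); parental arrays are black, FBB1.11 red and the other subclones grey, and the dotted line is the table's median of 30.5. FBB1.11 lies on one side of both parental arrays in every row, and in Bex4 it lies at 14.7 and 13.96, left of the dotted line.

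Genes that rose were 15, against 18 that fell. By probe sets 19 were higher and 28 lower, a balance that turned when either parental array was left out, with more then higher than lower. Cda, cytidine deaminase, which salvages pyrimidine nucleosides, read 70.4 and 80.3 in parental and 166 and 197 in FBB1.11 and was 2.4-fold higher (limma, adjusted p = 0.0013), with adjusted p up to 0.035 whichever array was left out. Dusp7, a phosphatase of ERK kinases, read 56.3 and 14.2 in parental and 163 and 141 in FBB1.11, at least 3.66-fold higher (adjusted p = 0.048). The parental arrays themselves differed widely there, and the call ended without parental 2, either FBB1.11 array or either FBB1.7 array (adjusted p up to 0.4). A second Dusp7 probe set stood at -0.04. Syt1, the synaptotagmin gene known from neurons, read 24.1 and 22.4 in parental, below the table's median, and 61.3 and 75.0 in FBB1.11, at least 2.22-fold higher (adjusted p = 0.03). Its call ended without parental 2 or either FBB1.11 array (adjusted p up to 0.26).

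Of the abundant transcripts that passed as higher, 7 genes with various roles rose by 0.26 to 0.51 on the log2 scale. None of the 7 passed against the mean of the other subclones. Psma4 and Lgals1 lay above that mean, by 0.02 and 0.14, and the others below it. Eif5a, a translation factor, rose on both of its probe sets, the brighter from 5403 and 5252 to 6648 and 6675 (adjusted p = 0.021). Psma4, a proteasome core subunit, rose from 1339.6 and 1456 to 1946 and 1905 (adjusted p = 0.024) and Atp5a1, the alpha subunit of ATP synthase, from 4378 and 4157 to 5597 and 5051 (adjusted p = 0.03). In these 3 genes both FBB1.11 arrays lay above both parental ones. Hsp90b1, a chaperone of the endoplasmic reticulum, rose from 790.2 and 699 to 1119 and 1006 (adjusted p = 0.047) on 1 of 2 probe sets. Prmt5, an arginine methyltransferase, rose from 569.9 and 585 to 804 and 778 (adjusted p = 0.049). Lgals1, galectin-1, rose from 4574 and 4859.6 to 5623 and 5705 (adjusted p = 0.047). A probe set shared by the peroxiredoxin gene Prdx1 and Gm21399 rose from 1429 and 1592 to 1999.7 and 2077 (adjusted p = 0.017). None of these 7 passed without FBB1.11 1, with adjusted p up to 0.49 for Hsp90b1, and without FBB1.11 2 Atp5a1 alone did. Without parental 2 Atp5a1, Hsp90b1 and Prmt5 lost their calls, and without parental 1 Lgals1 did. Without either FBB1.7 array those 4 lost theirs, Prmt5 and Lgals1 also without either FBB1.10 array and Lgals1 without either FBB1.5 array. With arrays centred on their median Prmt5 and Lgals1 did not pass, and with quantile normalization Atp5a1, Hsp90b1 and Lgals1 did not. All 7 lost their calls without the intensity filter, without the variance trend and in the fit of the 4 arrays alone. With the actin ratio in the model all but the shared Prdx1 probe set lost theirs.

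For some genes 1 probe set rose while the gene's brightest did not. Phf3, a gene with a PHD finger, had 6 tested probe sets, and 1 read 135 and 115 in parental and 358 and 354 in FBB1.11 (1.40 ± 0.11, adjusted p = 1.9e-05). Its brightest probe set read 428 and 455 against 374 and 373 (adjusted p = 0.47). Chd4, a NuRD remodeler, rose from 68.5 and 90.5 to 203 and 209 on 1 of 3 probe sets (1.23 ± 0.15, adjusted p = 0.0023), while its brightest stood at 835 and 867 and 972 and 830.3. Both calls held whichever array was left out (adjusted p up to 0.047 for Chd4), and that of Chd4 ended without the variance trend. Kif3b, a kinesin motor subunit, rose at least 4.13-fold on 1 of 4 probe sets, from 32.4 and 25.6 to 127 and 133 (adjusted p = 0.0064). Trip11, a Golgi protein gene, rose at least 2.67-fold on 1 of 3, from 43.2 and 26.5 to 99.0 and 95.1 (limma, adjusted p = 0.03). Its brightest read 91.0 and 96.5 in parental and 70.8 and 68.25 in FBB1.11 (-0.36, adjusted p = 0.27). The dimmest stood at -0.32, and neither of them passed. These 2 calls ended without either FBB1.11 array, and that of Trip11 without parental 2 (adjusted p up to 0.32). Igf1r, the receptor of insulin-like growth factor 1, passed in both directions. Its brightest probe set fell from 689.8 and 655 to 412 and 368 (adjusted p = 0.0091), and its next rose from 189 and 186 to 359 and 311 (adjusted p = 0.0065). Neither held without FBB1.11 1 (adjusted p up to 0.18), nor the fall without FBB1.11 2. Ube2h, a ubiquitin-conjugating enzyme, fell by 0.78 on 1 of 4 probe sets (adjusted p = 0.03) while the brightest stood at 0.01; the call ended without parental 2 or either array of FBB1.7 or FBB1.11 (adjusted p up to 0.32). Of the 32 genes called, 23 passed with their brightest probe set and 9 with another alone. Of the 21 with more than 1 tested probe set, 3 passed on every one, namely Ndrg1, Btg1 and Eif5a. Which part of each transcript a probe set reads was not analysed here.

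**Figure D3:**
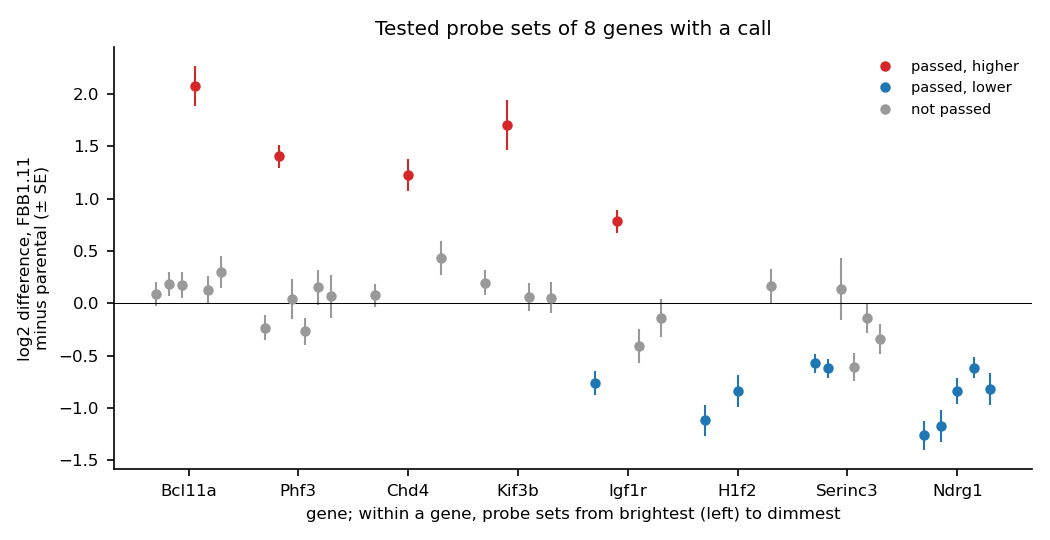
Log2 difference, FBB1.11 minus parental, with its standard error (y) for each tested probe set of 8 genes chosen after their values were seen (x; brightest probe set at the left within a gene); red passed as higher, blue as lower and grey did not pass. All 5 probe sets of Ndrg1 passed as lower, whereas 1 of 6 passed for Bcl11a and for Phf3, and Igf1r has 1 in each direction.

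Set against the other subclones in place of the parental line, 87 of 25061 probe sets passed (0.347%), 33 higher (0.132%) and 54 lower (0.215%). This test takes FBB1.11 minus the mean of FBB1.5, FBB1.7 and FBB1.10 in the same limma fit and uses no parental array. On 63 of the 87 both FBB1.11 arrays lay outside the range of all 6 arrays of the other subclones, as on 7.75% of all tested probe sets. Probe sets of H1f2, Cog1, Igf1r and Plac8 that were called against parental did not pass here. Passing in both comparisons, in the same direction, were 13 probe sets (0.0519%) of 11 genes. The comparisons share the FBB1.11 arrays, so this overlap is no independent support. Of these, Bex4 was lower than the mean of the other subclones by 2.40 ± 0.12 (SE, adjusted p = 1.3e-07) and held whichever array was left out (adjusted p up to 3.6e-05). Nrgn, Ivns1abp, Cdc14b and Serinc3 lay below all 6 arrays of the other subclones and passed as lower, as did Ndrg1. Nrgn had means of 413, 394 and 448 in FBB1.5, FBB1.7 and FBB1.10 against 217 in FBB1.11, whose arrays read 201 and 233 (limma, adjusted p = 0.0037). Ivns1abp, a kelch protein gene, had 562, 783 and 1016 against 403 ± 28.2 (SD, n = 2; limma, adjusted p = 0.005), and in the parental arrays 787 and 891. Its brightest probe set missed the threshold against parental (adjusted p = 0.074). The cell cycle phosphatase gene Cdc14b had 151, 129 and 138 against 66.2 ± 4.36 (limma, adjusted p = 0.0037), with 111 and 137 in parental. The brighter of the 2 Cdc14b probe sets passed neither against parental (adjusted p = 0.25) nor against the subclones (adjusted p = 0.33). The call of Cdc14b against parental reached an adjusted p of up to 0.37 and ended without parental 2, FBB1.7 2 or either array of FBB1.10 or FBB1.11. Syt1 was higher, at 68.2 ± 9.69 against 23.1, 20.8 and 19.9 (limma, adjusted p = 0.0042). The calls of Nrgn, Ivns1abp, Cdc14b, Serinc3 and Syt1 ended when either FBB1.11 array was left out (adjusted p up to 0.23 for Syt1), and held whichever of the other 3 subclones was taken out of the mean.

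Other differences from the subclone mean depended on which subclones entered it. Cma1 stood at 447 in FBB1.5, 31.2 in FBB1.7 and 82.7 in FBB1.10 against 44.7 in FBB1.11, and without FBB1.5 the difference did not pass (adjusted p = 0.60). Mcpt2 did not differ beyond the threshold (adjusted p = 0.17), with 4988, 673 and 2096 against 1487. The called Bcl11a probe set was higher than the mean by 0.96 (adjusted p = 0.016), yet FBB1.10 stood at 199 beside 213 in FBB1.11, with overlapping arrays. That call ended with FBB1.7 out of the mean (adjusted p = 0.21) or without either FBB1.11 array. The Phf3 and Chd4 calls ended with FBB1.7 out of the mean as well (adjusted p = 0.056 for Phf3), and both without either FBB1.11 array. That of Chd4 also ended with FBB1.5 out (adjusted p up to 0.2) and without 5 of the 6 single arrays of the other subclones, and those of Ndrg1 with FBB1.7 out, 1 of them also with FBB1.5 out (adjusted p up to 0.085), or without either array of FBB1.7 or FBB1.11. Without FBB1.5 in the mean 444 probe sets passed, without FBB1.7 28, and without FBB1.10 110. Of 79 probe sets called against the subclones with 1 gene and a chromosome, 14 (17.7%) lie on chromosome 14, which holds 3.43% of those tested, among them Vdac2, a mitochondrial porin, at 3012 in FBB1.5, 1399 in FBB1.7 and 1455 in FBB1.10, a call that ended with FBB1.5 out of the mean (adjusted p = 0.82) or without either FBB1.11 array, with 1409.6 and 1351 in FBB1.11 and 1462 and 1359 in parental.

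**Figure D4:**
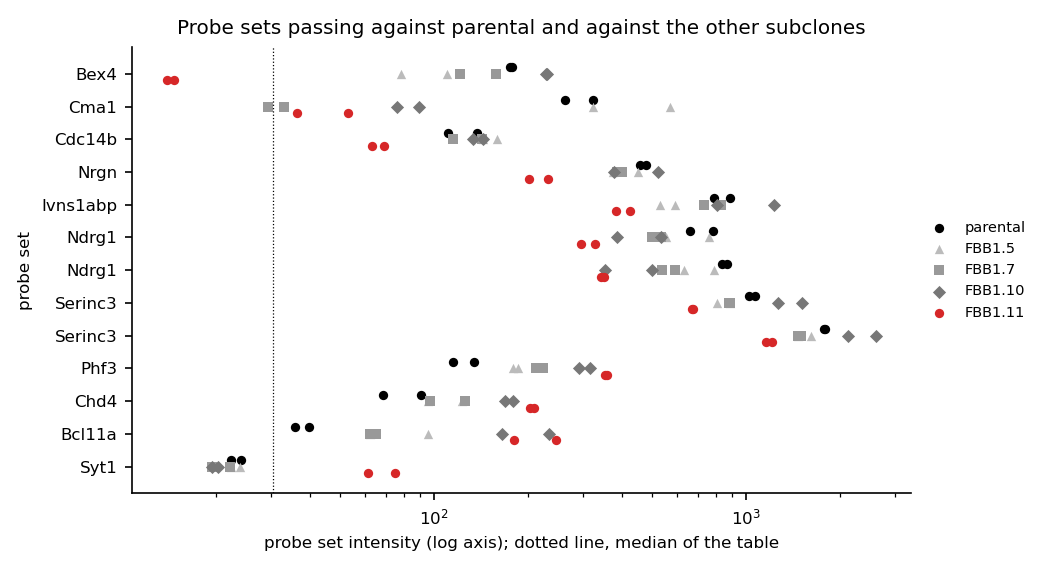
Intensity on each array (x, log axis) of the 13 probe sets that passed both against parental and against the mean of the other 3 subclones (y; Ndrg1 and Serinc3 have 2 each); parental arrays are black, FBB1.11 red and the other subclones grey, with the table's median dotted. FBB1.11 lies apart from all other arrays in Bex4, Cdc14b, Nrgn, Ivns1abp and Syt1, whereas FBB1.7 lies below it in Cma1 and FBB1.10 overlaps it in Bcl11a.

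Some genes passed against the other subclones and missed the threshold against parental. Those given here, named after their values were seen, are Gng2, Srgn, Ass1 and Hmox1. Gng2, a G protein gamma subunit, read 351 and 301 in parental and 209 and 199 in FBB1.11, against means of 376, 493 and 528 in FBB1.5, FBB1.7 and FBB1.10 (adjusted p = 0.0037). Its FBB1.11 arrays lay below both parental ones too, as on 20.6% of tested probe sets (-0.63 ± 0.17, limma, adjusted p = 0.15). These values are of the brightest of 4 Gng2 probe sets. Another also passed against the subclones (limma, adjusted p = 0.040), with means of 498, 206 and 246 against 175. That call ended with FBB1.5 out of the mean (adjusted p = 0.26). Srgn stood at 1357 and 1371 in FBB1.11, against 918, 800.5 and 938 (adjusted p = 0.0074), while its difference from parental was 0.00. In Srgn it was thus the other subclones that lay away from both FBB1.11 and parental. A probe set shared by Ass1, argininosuccinate synthase of arginine synthesis, and Gm5424 showed the same order, at 3159.7 and 2789 in FBB1.11 and 2938 and 2592 in parental against 1750.1, 1824 and 2204 (adjusted p = 0.0007). The calls of the brightest Gng2 probe set, of Srgn and of the Ass1 probe set held whichever subclone was taken out of the mean. All 3 ended without FBB1.11 1, and those of Gng2 and Srgn also without FBB1.11 2. Hmox1, heme oxygenase 1, which breaks down heme, read 196 and 190.0 in FBB1.11 against 143, 489 and 358 (adjusted p = 0.03). Its FBB1.5 level lay below FBB1.11, and the call ended without FBB1.7 in the mean (adjusted p up to 0.81), without FBB1.10 in it, or without any single subclone array but FBB1.10 2 (adjusted p up to 0.37).

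Globin transcripts showed no called difference between FBB1.11 and parental. A single probe set covers all adult beta-globin genes, and it read 865 and 975 in parental and 1056 and 1177 in FBB1.11 (log2 difference 0.28 ± 0.09, adjusted p = 0.24). For alpha-globin, the brightest probe set common to Hba-a1 and Hba-a2 read 1952 and 2376 in parental and 2502 and 2824 in FBB1.11 (0.30 ± 0.10, adjusted p = 0.25). Both had FBB1.11 above both parental arrays, as on 20.6% of tested probe sets, and neither passed. Another probe set common to Hba-a1 and Hba-a2 read 1009.5 and 1326.6 against 1208.2 and 1503, with overlapping arrays (limma, adjusted p = 0.54). One annotated to Hbb-b2 alone stood at -0.02 on the log2 scale and was not called. A dim probe set annotated to Hba-a2 alone read 62.7 and 56.7 in parental and 139.5 and 126 in FBB1.11 (0.98 ± 0.24, adjusted p = 0.11). It passed in a fit of the 4 arrays alone (adjusted p = 0.034) and without FBB1.10 1 or FBB1.10 2 (adjusted p = 0.022 and 0.025). Hba-x, the embryonic alpha-like gene, read 49.1 and 44.3 against 54.3 and 59.0 (adjusted p = 0.6). All probe sets of the embryonic beta-like genes Hbb-y and Hbb-bh1, which BCL11A is known to repress, lay below the filter with at most 20.6 on any of the 10 arrays. A fall from such a level was not detectable.

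Erythroid lists carried no called gene. Of 23 erythroid transcription factor genes, 17 heme synthesis genes, 16 iron handling genes and 23 red cell membrane and surface genes measured by their brightest probe set, 0 passed in either direction, against 0.184% of all genes. At an unadjusted p under 0.05 limma gave 4 of the 23 transcription factor genes, 1 of 17 heme genes, 3 of 16 iron genes, and 11 of the 23 membrane and surface genes, beside 11.9% of all genes. Their medians were 0.05, 0.03, -0.0022 and 0.08 on the log2 scale, beside 0.0026 over all 12502 genes. Car1, carbonic anhydrase 1, came nearest, at 8932 and 8908 in parental and 10179 and 10335 in FBB1.11 (0.20 ± 0.04, adjusted p = 0.053). Bsg, the surface protein basigin, read 1571 and 1404 and 2004 and 1866 (adjusted p = 0.06), Tfrc, the transferrin receptor, 2417 and 2730.3 and 3014 and 2992 (adjusted p = 0.36), and Epor, the erythropoietin receptor, 884 and 942 and 1164 and 968 (adjusted p = 0.39). In each of these 4 the FBB1.11 arrays lay above both parental ones, as on 20.6% of tested probe sets, without a call. Other members lay lower, and above and below 0 stood 12 and 11 membrane and surface genes, 8 and 8 iron genes, 12 and 11 transcription factor genes and 10 and 7 heme genes. Foxo3, a transcription factor of late red cell maturation, read 367 and 405 in parental and 289 and 309 in FBB1.11 (-0.35 ± 0.12, adjusted p = 0.27). Add2, a membrane skeleton protein, read 577 and 546 and 466 and 435 (-0.31 ± 0.11, adjusted p = 0.26). In both of these FBB1.11 lay below both parental arrays, as on 20.6% of tested probe sets. Without parental 1 Car1, Bsg and Steap3, an iron reductase, passed as higher (adjusted p = 0.028, 0.0086 and 0.0045). Car1 also passed with log2(intensity + 64), quantile normalization or a robust variance (adjusted p up to 0.047), and Bsg with a robust variance (adjusted p = 0.049).

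Among the NuRD subunits and other BCL11A partners, 1 of 22 measured genes passed, Prmt5 as higher, beside 0.184% of all genes by their brightest probe set, and the median was 0.0040. Chd3 read 345 and 352 in parental and 275 and 269.6 in FBB1.11 (adjusted p = 0.26) and Wdr77, the partner of PRMT5, 308 and 351 and 389.8 and 393 (adjusted p = 0.37). The called Chd4 probe set is not the gene's brightest and is not in this count. Of 17 progenitor and leukemia factors 0 passed. Gata2, a progenitor factor, read 268 and 261 and 158 and 173 (-0.63 ± 0.12, adjusted p = 0.053), just short of the threshold, and passed with arrays centred on their median (adjusted p = 0.0499) or without either FBB1.5 array (adjusted p up to 0.047). Myc read 448 and 480.4 in parental and 628 and 559 in FBB1.11 (adjusted p = 0.19).

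In the growth and stress lists single genes passed at most, against the same 0.184% of all genes. Of 25 genes of DNA replication and nucleotide synthesis, Cda alone passed, while 21 lay above 0, beside 6325 of all 12502 genes. The median of this list was 0.13, and against the mean of the other subclones it was -0.08. Pcna, the polymerase clamp, read 1273 and 1354 in parental and 1594 and 1787 in FBB1.11 (adjusted p = 0.094). Of 26 mitosis genes (median 0.05), 19 G1 cyclins and CDK inhibitors (0.03) and 19 survival and death genes (-0.06), 0 passed. Cdkn1b, the inhibitor p27, read 524 and 494 and 356 and 373 (adjusted p = 0.15) and Bcl2, a survival gene, 301 and 271 and 183 and 213 (adjusted p = 0.093). In both genes FBB1.11 lay below both parental arrays, as on 20.6% of tested probe sets, and neither passed. Of 27 genes of the ATF4 amino acid response (0.06), 22 of endoplasmic reticulum folding (0.11) and 20 of heat shock (-0.03), 0 passed by their brightest probe set. Hsph1, a cytosolic chaperone, was nearest, at 1049.8 and 993 in parental and 767 and 739 in FBB1.11 (-0.43 ± 0.09, adjusted p = 0.072). Hspa5, the main chaperone of the endoplasmic reticulum, read 831 and 878 and 1007 and 1119 (adjusted p = 0.18). Of 17 immediate early genes Dusp7 alone passed (median -0.02), and of 2 measured linker histones H1f2. The sterol and fatty acid list (23 genes, -0.03) and the interferon and antigen presentation list (16 genes, -0.05) had 0 calls.

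Markers of other blood lineages, besides the mast cell genes, did not differ by a called gene. Of 17 megakaryocyte and platelet genes, 15 granulocyte and macrophage genes and 13 lymphoid genes 0 passed, beside 0.184% of all genes by their brightest probe set. The medians of the lists were 0.04, 0.03 and -0.01. Vwf, the von Willebrand factor gene, read 76.7 and 41.9 in parental and 13.5 and 20.4 in FBB1.11, both below the table's median there (adjusted p = 0.11). Plek, pleckstrin of platelets and leukocytes, read 304 and 301 in parental and 196 and 182 in FBB1.11 (adjusted p = 0.11), and passed as lower without FBB1.10 1 or FBB1.10 2 (adjusted p = 0.029 and 0.027). It was lower than the mean of the other subclones (adjusted p = 0.024), a call that ended without either array of FBB1.11 or FBB1.7 or without FBB1.5 1 (adjusted p up to 0.35).

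**Figure D5:**
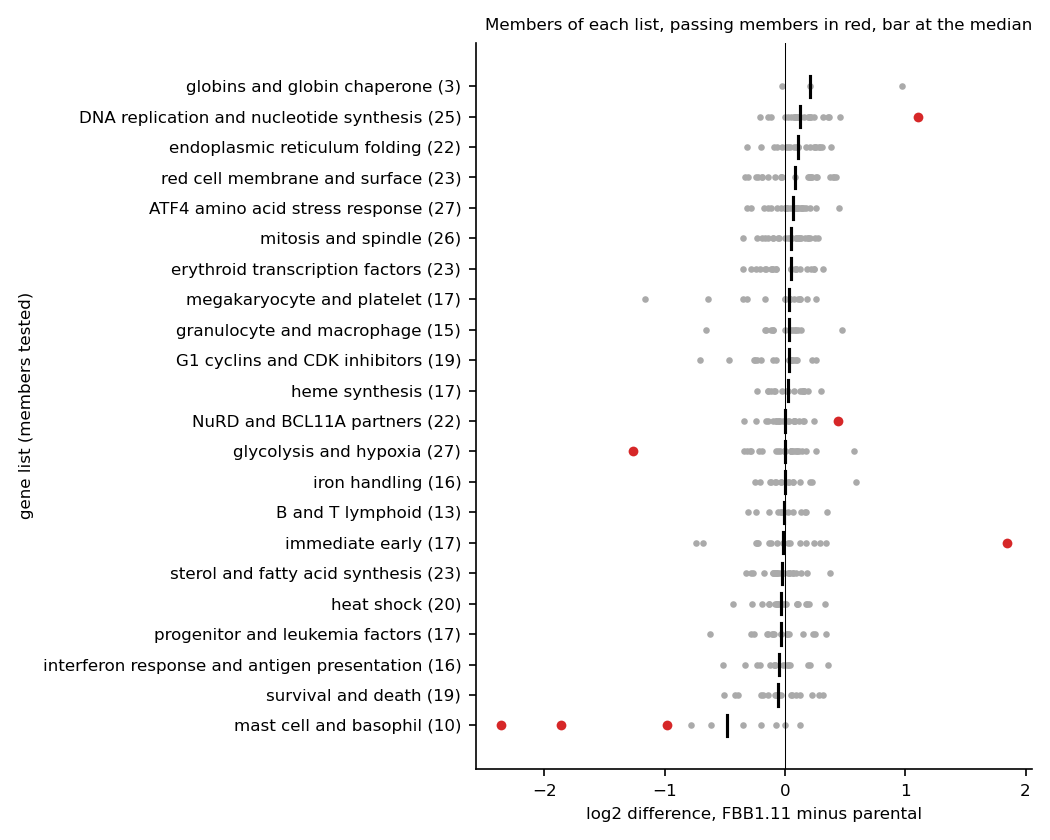
Log2 difference, FBB1.11 minus parental (x), of each measured member of 22 gene lists by its brightest probe set (y; members tested in brackets), with called members in red and the list's median as a bar; the linker histones, with 2 measured, are not drawn. The mast cell and basophil list has 3 called members and a median of -0.48, and the other medians lie between -0.06 and 0.21, the latter over 3 globin genes.

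The 41 called probe sets with 1 named gene lie on 15 chromosomes. Chromosome 15 holds the most, 7 (17.1%, beside 3.91% of those tested), of which 5 are probe sets of Ndrg1. The median log2 difference of the genes on a chromosome ranged from -0.03 on chromosome 18 to 0.02 on chromosome X. Chromosome 14, with 440 measured genes, had a median of 0.0050. It holds 4 called probe sets (9.76%, beside 3.43% of those tested), those of Mcpt2, Cma1, Gzmb and Prmt5. Called probe sets that name no single gene numbered 6, of which 1 is shared by Fsbp and Rad54b and read 7.79 and 7.46 in parental and 60.05 and 47.6 in FBB1.11, at least 1.75-fold higher (adjusted p = 0.0064; without FBB1.11 1, 0.18).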

How the data were processed

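The authors deposited a linear intensity for each probe set. Their summarisation, background correction and scaling are not given in the sources used here. Per the labels' protocols, oligo-dT-primed cDNA was transcribed into biotin-labelled cRNA and stained with a streptavidin dye conjugate. Of 45101 probe sets, 64 are controls and were dropped. The log2(intensity + 16) scale was used without further normalization, so a difference understates the change of dim genes. Probe sets above the table's median, 30.5, on at least 2 of 10 arrays were tested, which left 25061. The fit had 5 line means (R 4.3.3, limma 3.58.1, eBayes with an intensity trend, 5 residual degrees of freedom), and pools the spread over the lines. Benjamini-Hochberg adjustment ran over all tested probe sets, with a threshold of 0.05. The 2 arrays of a line limit the precision. The function was tested on simulated data.

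A fold is a bound if the dimmer line has an array no higher than the table's median. It then compares plain log2 intensities, after arrays of the dimmer line under that median were set to it.

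Gene names came from the platform annotation, of which 34754 of 34958 single-symbol probe sets matched RefSeq of GRCm38.p6 and 0 symbols changed. Promoters came from RefSeq on the same assembly, for 10042 of 12502 genes tested. The 23 lists, the motifs and the rule for named genes were chosen with earlier results of these data known. Named were Bcl11a, the globins, up to 12 highest and 12 lowest passing genes by brightest probe set, up to 8 in each direction passing in both comparisons, and up to 4 members of a list by p. Further called genes and the promoters shown were chosen after their values were seen. Alternatives covered the value added before log2, normalization, filter, variance model, arrays in the fit, replicate number, actin ratio, each array left out and, added after the data were seen, each other subclone out of the mean. Figures were drawn with matplotlib 3.10.9.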

Additional observations from a re-analysis of the deposited data

Results flagged for a closer look

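For 13 probe sets that passed against parental, the difference in FBB1.11 itself differed from that of the other 3 subclones, by limma on FBB1.11 minus their mean on the log2 scale. Lower were Bex4 (-2.40), Cma1 (-1.09), Cdc14b (-0.91), Nrgn (-0.89), Ivns1abp (-0.89), Ndrg1 on 2 probe sets (-0.75 and -0.65) and Serinc3 on 2 (-0.58 and -0.55). Higher were Syt1 (1.17), Bcl11a (0.96), Chd4 (0.62) and Phf3 (0.60). The adjusted p ranged from 1.3e-07 for Bex4 to 0.044 for Chd4. Bex4 alone of the 13 held whichever array was left out. Groups of 2 arrays allow no test for a single outlying array.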

How the results depend on the processing

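The count of probe sets passing against parental, 47, was 31 with log2(intensity + 1), 27 in a fit of the 4 arrays alone, 16 both without an intensity filter and with the actin ratio in the model, and 8 without the variance trend. The fit of 4 arrays could not be made for the other subclones. Against the other subclones the count, 87, was 14 with no filter, 2 without the trend, 191 with the actin ratio, 444 without FBB1.5 in the mean and 28 without FBB1.7. Leaving out 1 array in turn gave 10 to 435 against parental and 2 to 213 against the subclones. The numbers in the titles do not state a pairing, and the deviations of same-numbered arrays of parental and FBB1.11 correlated at 0.18. With the replicate number as a block 121 passed against parental, all 47 among them, and 136 against the subclones. Log2 differences turned sign in 9 cases, none of a called probe set. Without FBB1.11 1, Hbb-b2 stood at 0.14, 1 Bcl11a probe set at -0.0087 (up to 0.26 without another array) and H1f10 at -0.09 (up to 0.37). Without FBB1.11 2, the dimmest shared alpha-globin probe set of Hba-a1 and Hba-a2 stood at -0.055 (up to 0.52). Without parental 1, Hbb-b2 stood at 0.13, and without parental 2, Acaca at 0.0013 (down to -0.34) and H1f10 at -0.19. With the actin ratio, Ctsg stood at 0.0028 and H1f10 at -0.30. Of the other gene values under an alternative, 2633 kept their side of the threshold, 295 lost a call and 32 gained one. List medians moved by more than the spread between arrays in 19 cases and by less in 465. Levels near the table's median limit what could be seen of dim genes.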
